A study of Mus musculus with 146 samples.

Results

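Figla, Nobox, Lhx8, Sohlh1 and Sohlh2 are 5 germ cell transcription factor genes, chosen by name from the 52605 gene symbols measured in 146 libraries of single cells of newborn mouse ovary. By the labels, each library was made from a cell picked by mouth pipette from digested C57/BL6J ovaries at P0.5 (day 0.5 after birth), from 5 ovaries of females of the same litter. Ahead of sequencing, the authors measured Vasa (Ddx4) and Foxl2 in each amplified cDNA by quantitative PCR and went on only with those negative for Foxl2. The cells carried no genotype, treatment or further age label, and no label tied a cell to an animal, so the cells are 1 sample and all values are descriptions without a test. The 1 cell with Ddx4 below 1 TPM was left out, and the other cells are called the kept cells below. The cell left out had 0 reads on each of the 5 genes and 1408459 reads on genes in all.

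Primordial follicles form when germ cell cysts break apart and single oocytes, arrested late in the first meiotic prophase, are enclosed by pregranulosa cells. The 5 factors are made in germ cells, and knockout of any of them in mice leads to loss of oocytes or of follicles around this time. FIGLA, SOHLH1 and SOHLH2 are basic helix-loop-helix (HLH) proteins, which bind E-boxes (CANNTG) as dimers. FIGLA pairs with the E protein TCF3 and is needed for the zona pellucida genes. SOHLH1 and SOHLH2 can pair with each other and act upstream of Lhx8 and Kit. NOBOX is a homeodomain protein that activates Gdf9 and Pou5f1, and LHX8 is a LIM homeodomain protein.

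In GRCm38 with GENCODE M21, Figla lies at chr6:86016171-86020996 on the plus strand, Nobox at chr6:43303674-43309554 on the minus strand, Lhx8 at chr3:154306294-154330659 on the minus strand, Sohlh1 at chr2:25842995-25847248 on the minus strand and Sohlh2 at chr3:55182028-55209957 on the plus strand. No other annotated gene overlapped any of them. Their longest coding transcripts have 3 exons (Figla), 9 (Nobox), 9 (Lhx8), 8 (Sohlh1) and 11 (Sohlh2). The stretch before the RefSeq start site of each gene (RefSeq, GRCm38.p6) is shown 5′ to 3′ on the gene's own strand, since 3 of the 5 proteins bind E-boxes and the genes are compared below for levels that move together. Capitals mark each CANNTG. For Lhx8 and Sohlh2, the bases that GENCODE M21 places inside the first exon are left out. The Figla window overlaps no exon but lies inside the gene span given above, since a processed transcript starts further upstream.
Figla, chr6:86016941-86017190, plus strand: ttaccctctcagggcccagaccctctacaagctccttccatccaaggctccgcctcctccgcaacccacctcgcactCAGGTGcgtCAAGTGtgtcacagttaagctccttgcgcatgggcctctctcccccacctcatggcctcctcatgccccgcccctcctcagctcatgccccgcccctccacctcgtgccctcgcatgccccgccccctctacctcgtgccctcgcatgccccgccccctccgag
Nobox, chr6:43309555-43309804, minus strand: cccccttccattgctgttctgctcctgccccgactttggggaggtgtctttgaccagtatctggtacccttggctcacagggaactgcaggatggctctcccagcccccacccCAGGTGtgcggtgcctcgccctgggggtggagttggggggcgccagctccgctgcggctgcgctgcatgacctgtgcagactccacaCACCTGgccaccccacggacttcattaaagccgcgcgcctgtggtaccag
Lhx8, chr3:154330660-154330810, minus strand: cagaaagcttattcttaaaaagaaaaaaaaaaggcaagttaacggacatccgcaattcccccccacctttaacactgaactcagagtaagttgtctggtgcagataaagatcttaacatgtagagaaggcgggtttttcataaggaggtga
Sohlh1, chr2:25847249-25847498, minus strand: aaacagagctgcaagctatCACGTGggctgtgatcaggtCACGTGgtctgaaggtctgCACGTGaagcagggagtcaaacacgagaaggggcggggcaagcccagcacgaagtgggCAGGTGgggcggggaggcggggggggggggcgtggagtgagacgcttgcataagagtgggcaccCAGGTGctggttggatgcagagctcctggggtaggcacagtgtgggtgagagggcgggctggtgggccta
Sohlh2, chr3:55181794-55182027, plus strand: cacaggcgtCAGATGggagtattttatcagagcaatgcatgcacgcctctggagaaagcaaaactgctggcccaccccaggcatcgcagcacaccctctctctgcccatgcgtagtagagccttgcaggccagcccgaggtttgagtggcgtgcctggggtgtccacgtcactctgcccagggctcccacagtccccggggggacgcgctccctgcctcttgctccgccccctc

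In the 250 bases before the RefSeq start, Sohlh1 had 5 matches to CANNTG, Figla and Nobox 2 each, Sohlh2 1 and Lhx8 0. Of 32851 RefSeq mouse promoters, 66.2% had at least 1 match in the same window and 12.2% had 3 or more. The 3 matches of Sohlh1 that start 231, 211 and 192 bases before the start site read CACGTG, which 6.02% of promoters hold at least once and 0.0609% hold 3 times or more. CAGGTG (on either strand, and also a CANNTG match) was found 2 times before Sohlh1, 2 times before Nobox and 1 time before Figla, against 17.2% of promoters with a match. TAATTG (7.17% of promoters), TAATTA (4.84%) and TGATTG (12.7%), searched on both strands as homeodomain motifs, had no match before any of the 5 genes. The GC box GGGCGG, searched on both strands and found in 32.7% of promoters, had 4 matches before Figla, 3 before Sohlh1 and 1 before Sohlh2. A match describes letters in these windows and not binding.

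In 7 pairs of libraries the levels of all genes were nearly the same. Pearson's r of log2(TPM + 1) was 0.983 to 0.992 within these pairs and at most 0.803 between any other libraries. The spread of read counts within a pair was 1.91 to 5.18 times counting noise (chi-square per degree of freedom), against 187 or more for the 5 next most alike pairs. The labels give each library as its own sample, and whether a pair is 1 cell was not tested. All 7 pairs had all 5 factors on (at 1 TPM or more) in both libraries, so counts of cells with a factor off at that limit do not rest on them. In 1 pair Sohlh2 stood at 1.39 and 1.05 TPM, so both its libraries count as off at the higher limits of 5 and 10 TPM. Values count each library as a cell unless stated, and values with each pair averaged and counted as 1 cell, a choice made after seeing the data, stand beside them where the text says counted once.

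The kept cells had between 4074810 and 26855273 estimated reads on genes, with a median of 9498860. The germ cell genes Ddx4 (by the rule) and Dazl, an RNA-binding protein, were at 1 TPM or more in every kept cell, and Mael, of the piRNA pathway, in all but 2. Of 13 pregranulosa markers, Wnt6 and Nr5a1 reached 1 TPM in 0 cells and the others in 1 to 10 cells, with Foxl2 in 5 cells at up to 16.9 TPM. Haemoglobin RNA was widespread, with Hbb-bs at 1 TPM or more in 91 cells, and in 1 cell the 6 blood genes summed to 324531 TPM. In that cell all 5 factor genes were at 36.5 TPM or lower, and the part of the haemoglobin in this was not tested. Without it and the 1 cell with Ddx4 below 10 TPM, a choice made after seeing the data, 16 cells in place of 17 had Nobox, Lhx8 or Sohlh1 off and 12 in place of 13 had Sohlh2 alone off.

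Figla was the most abundant of the 5 genes and Sohlh2 the least. Levels are in TPM, a share of all transcripts in the cell that is scaled by transcript length and can be compared between genes. Figla ranged from 1.87 TPM to 4453 over the kept cells with a median of 1338 (SD 849). Lhx8 ranged from 0 to 1592 with a median of 438 (SD 340). Sohlh1 ranged from 0 to 968 with a median of 296 (SD 193). These 3 genes spread alike relative to their means, with coefficients of variation of 61.6%, 65.2% and 64.6%. Nobox ranged from 0 to 771 TPM with a median of 224 (SD 182, coefficient of variation 72.7%). Sohlh2 ranged from 0 to 487 with a median of 72.9 (SD 80.5) and had the widest relative spread of the 5 in TPM, at 94.2%. Divided by the spike-in TPM of the cell, Nobox (106.3%) and Sohlh2 (103.05%) had about the same relative spread.

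**Figure D1:**
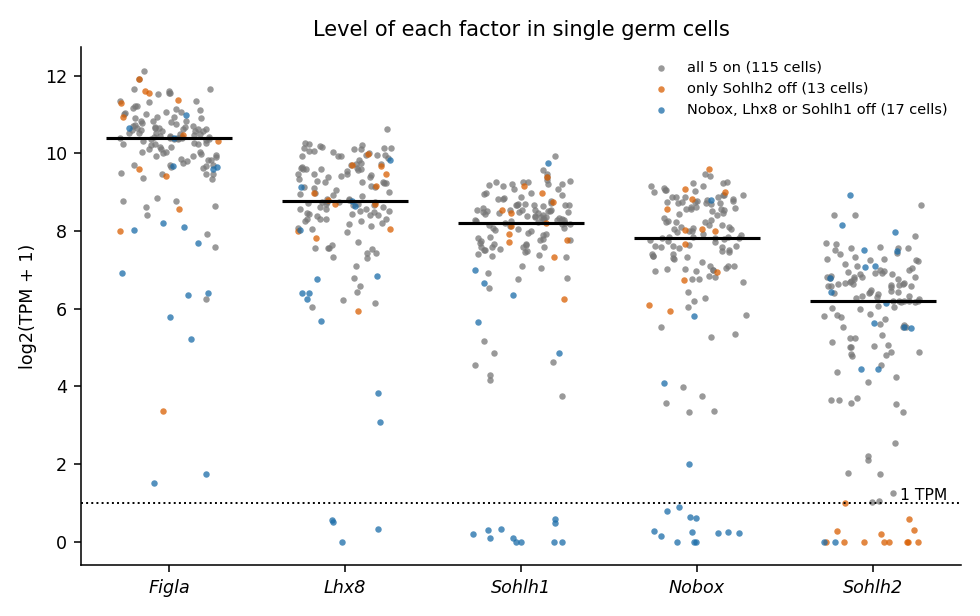
Level of each gene, as log2(TPM + 1), in each kept cell, with the black bar at the median and the dotted line at 1 TPM. Points are coloured by the on and off state of the factors. Both libraries of each near-copy pair are drawn. Figla has the highest median (1338 TPM), and all 5 genes span a wide range of levels among the cells in which they are on.

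Within single cells Figla was nearly always the highest of the 5, and the order below it varied. Figla was above Nobox in all but 1 of the kept cells, above Sohlh1 in all but 1, above Lhx8 in all but 6 and above Sohlh2 in all but 6. Sohlh1 was above Lhx8 in 33 cells, and Nobox was above Lhx8 in 23. In the cells with all 5 genes on, the median difference in log2(TPM + 1) was 1.42 between Figla and Lhx8 (quartiles 0.86 and 1.97) and 0.93 between Lhx8 and Sohlh1 (0.02 and 1.48). Sohlh1 and Nobox, next to each other in the order, did not differ beyond their spread, with a median difference of 0.29 and quartiles of -0.53 and 1.02. Sohlh2 was 1.81 below Nobox (0.91 and 2.55), and it was above Nobox in 23 cells and above Sohlh1 in 25.

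The lengths behind these TPM values differ between cells. The deposited abundance-weighted length of Figla ran from 231 to 759 bases with a median of 487, and that of Lhx8 from 381.5 to 1243 with a median of 430, while those of Sohlh1 (1289) and Sohlh2 (2364) were constant. That of Nobox ran from 460 to 1284 with a median of 625. The lowest lie below the shortest GENCODE M21 transcript (359 bases for Figla, 920 for Nobox and 763 for Lhx8). For Nobox and Lhx8 the median length does so too. The annotation release behind these lengths is not given in the sources used here. For Figla the cells with a shorter length had more TPM (rho -0.45). With reads scaled to 1 total per cell (CPM) and divided by the length of the longest coding GENCODE M21 transcript instead, an alternative chosen after seeing the data, the medians per kilobase were 635 for Figla, 275 for Lhx8, 227 for Sohlh1, 167 for Nobox and 59.9 for Sohlh2, in the same order as in TPM. With these lengths Sohlh1 was above Lhx8 in 52 cells and Nobox above Lhx8 in 34.

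A gene was called on in a cell at 1 TPM or more. Figla was on in every kept cell (100%, exact 95% Clopper-Pearson interval 97.5 to 100%). Lhx8 was on in all but 4 (97.2%, 93.1 to 99.2%) and Sohlh1 in all but 11 (92.4%, 86.8 to 96.2%). Nobox was on in all but 13 (91%, 85.2 to 95.1%) and Sohlh2 in all but 15 (89.7%, 83.5 to 94.1%). Counted once, the shares were 97.1% for Lhx8, 92% for Sohlh1, 90.6% for Nobox and 89.1% for Sohlh2. The intervals cover counting error only. Few cells lay just above the limit for Nobox, Lhx8 and Sohlh1, with 3, 1 and 0 cells between 1 and 10 TPM, against 9 cells for Sohlh2. Below the limit this did not hold for Nobox. At 0.1 TPM, Nobox was on in 97.9% of cells, Lhx8 in 99.3%, Sohlh1 in 95.9% and Sohlh2 in 93.1%. Where Figla was lowest, the call rested on little, with 3 reads (1.87 TPM) in 1 cell and 9 reads (2.35 TPM) in another.

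Off did not always mean without reads. Of the 13 cells with Nobox off, 3 had 0 reads of it, and the highest of the 13 stood at 0.847 TPM. Of the 11 cells with Sohlh1 off, 4 had 0 reads and the highest was at 0.498 TPM, and of the 4 cells with Lhx8 off 1 had 0 reads and the highest was at 0.484 TPM. Sohlh2 differed in that 10 of its 15 off cells had 0 reads, with the highest at 0.985 TPM. A count of 0 allows up to 3 reads, which in those cells is up to 0.970 TPM for Nobox, 0.840 for Lhx8, 0.925 for Sohlh1 and 1.71 for Sohlh2, so for Sohlh2 a level just above the limit was not detectable in every cell.

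All 5 genes were on together in 79.3% of the kept cells (71.8 to 85.6%), or 78.3% counted once (70.4 to 84.8%), and at least 1 was off in 30, and 9 of the 32 possible combinations occurred. In 13 cells (8.97%, 4.86 to 14.8%) Sohlh2 alone was off. Nobox alone was off in 4 cells and Sohlh1 alone in 4. Figla and Sohlh2 were the only genes on in 3 cells, and Figla, Lhx8 and Sohlh2 in another 3. The other 3 combinations, Figla with Lhx8, Figla with Lhx8 and Sohlh1, and Figla with Sohlh1 and Sohlh2, had 1 cell each.

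**Figure D2:**
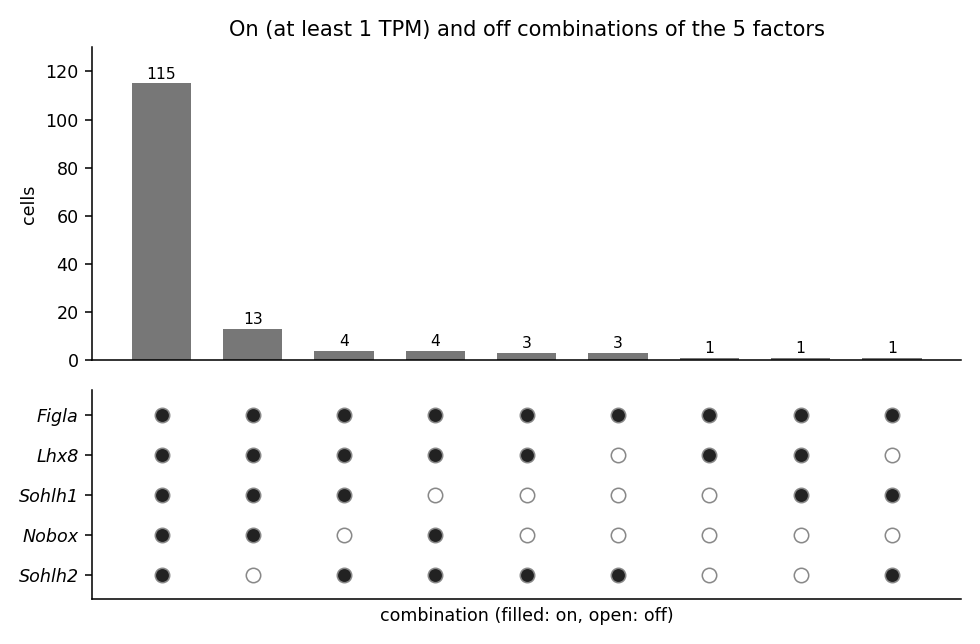
Number of cells (bars) with each on and off combination of the 5 genes, shown by the filled and open circles under each bar. All 5 are on in 79.3% of cells, Sohlh2 alone is off in 13, and each other combination holds 4 cells or fewer.

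Pairwise, the cells with Nobox on lay inside those with Lhx8 on, with 9 cells with Lhx8 only, 0 with Nobox only, 4 with neither and both on in the rest. The same held at each other limit on TPM or reads, and when each cell was thinned to 1000000 reads 1 cell had Nobox and not Lhx8. Lhx8 was on without Sohlh1 in 8 cells and Sohlh1 without Lhx8 in 1, with neither in 3. Nobox and Sohlh1 left each other in both directions, with 4 cells with Nobox only, 6 with Sohlh1 only and 7 with neither. The counts depend on the limit for on. At 0.1 TPM and at 1 read, Sohlh1 was on without Nobox in 1 cell and Lhx8 without Nobox in 2, and Sohlh2 was on without Nobox in 3 cells in place of 11.

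The off state of Sohlh2 was not shared with its partner Sohlh1 more than with cells at large. Of the 11 cells with Sohlh1 off, 1 had Sohlh2 off (9.09%), against 10.3% of all kept cells, and of the 13 with Nobox off 2 had (15.4%). Of the 11 cells with Sohlh1 off, 7 had Nobox off (63.6%), against 8.97% of all kept cells. Sohlh1 and Sohlh2 were both on in 120 cells, Sohlh1 alone in 14, Sohlh2 alone in 10 and neither was in 1. Against Lhx8, 15 cells had Lhx8 only, 4 had Sohlh2 only and 0 had neither. Against Nobox, 13 had Nobox only, 11 had Sohlh2 only and 2 had neither. Sohlh2 was on in all but 13 of the cells with the other 4 genes on, in 8 of the 9 with 3 of them on, in 4 of the 5 with 2 on, and in 3 of the 3 with Figla alone.

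Across the kept cells, the TPM of Figla, Nobox, Lhx8 and Sohlh1 went together and that of Sohlh2 did not go with them. Spearman's rho was 0.61 for Figla and Sohlh1, 0.55 for Figla and Lhx8, 0.55 for Nobox and Lhx8 and 0.54 for Lhx8 and Sohlh1. It was 0.51 for Figla and Nobox and 0.43 for Nobox and Sohlh1. For Sohlh2 it was 0.10 with Lhx8, 0.02 with Nobox, -0.03 with Figla and -0.10 with Sohlh1. These correlations are descriptions across cells of 1 sample that share library steps, depth and the TPM total. Counting only the cells with both genes of a pair on, the median was 0.46 over the 6 pairs without Sohlh2 (0.29 to 0.54) and 0.04 over the 4 pairs with it (-0.06 to 0.17). Counted once, the medians over all cells were 0.56 for the 6 pairs (0.46 to 0.63) and -0.0033 for the 4 (-0.08 to 0.07).

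**Figure D3:**
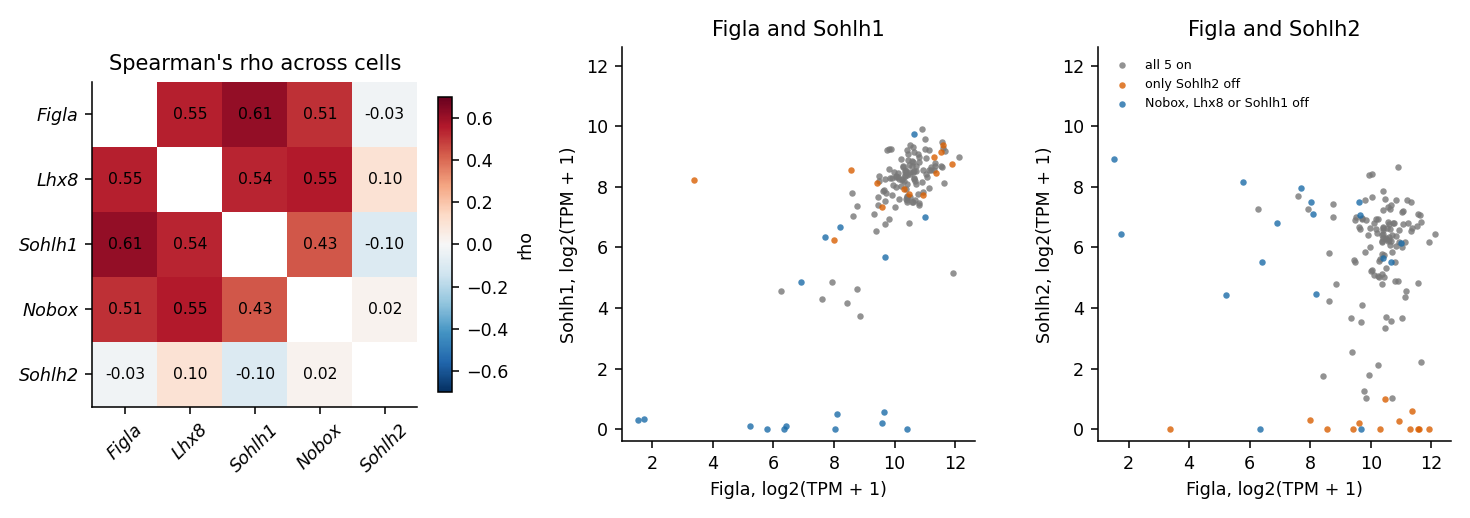
Left, Spearman's rho of TPM between each pair of genes across the kept cells. Middle and right, log2(TPM + 1) of Sohlh1 and of Sohlh2 against that of Figla, 1 point a cell. Sohlh1 goes with Figla (0.61), while Sohlh2 lies at all levels of Figla (-0.03).

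Among 9768 other coding genes at 1 TPM or more in at least 30 cells, the factors stood near the top for each other. By rho with Figla, Sohlh1 was ranked 1, Lhx8 4 and Nobox 11, while Sohlh2 was ranked 4691. By rho with Lhx8, Nobox was ranked 8, Figla 12, Sohlh1 14 and Sohlh2 2861. The median rho of all these genes was -0.03 with Figla and 0.02 with Lhx8. From CPM, which do not use the length, Sohlh1 was ranked 2 for Figla but Lhx8 48, with Nobox further down. Division by the spike-in TPM raised every rho, with a median of 0.76 over the 6 pairs and 0.34 over the 4 pairs with Sohlh2, against medians over all genes of 0.25 with Figla and 0.29 with Sohlh2. Under that scaling Sohlh1 was again ranked 1 for Figla, and the other factors were ranked between 3378 and 4733 for Sohlh2.

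The genes most like each factor overlapped among the 4, and none of them was among those of Sohlh2. Counted once, 4 of the 5 genes remained for Figla, Lhx8, Sohlh1 and Sohlh2, and 5 for Nobox. For Figla they were Sohlh1 (0.61), the chromatin-binding factor gene Banf1 (0.59), the apolipoprotein gene Apoc2 (0.55), Lhx8 (0.55) and Vkorc1 (0.54), of the vitamin K cycle. For Sohlh1 they were Figla, Ninj1 (0.56), Vkorc1 (0.55), Lhx8 and the annexin gene Anxa7 (0.49). For Nobox they were Gdpd1 (0.66), Ninj1 (0.62), Anxa7 (0.62), Sumo3 (0.60) and Rnaset2b (0.59), whose reads may be shared with its near-identical copy Rnaset2a. For Lhx8 they were the aldose reductase gene Akr1b3 (0.68), Sumo3 (0.67), Ddah1 (0.65), the complement regulator gene Cd55 (0.61) and Ypel5 (0.58).

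For Sohlh2 the most alike genes were Tomm70a (0.57), a receptor of mitochondrial protein import, the ATP synthase gene Atp5f1 (0.55), Emc10 (0.53), the splicing factor gene Puf60 (0.53) and the ubiquitin ligase gene Cul4b (0.52). The gene that went most against Sohlh2, named after its values were seen, was Ybx2 (-0.40), a germ cell protein that stores mRNA. Sohlh2 also went against the mitochondrial share of reads (-0.36) and the spike-in TPM (-0.26), and for Figla, Nobox, Lhx8 and Sohlh1 these were -0.25 to -0.01 and -0.11 to 0.09. The part of these measures was not tested. With the number of reads of the cell, rho was 0.10 for Sohlh2 and between -0.03 and 0.15 for the other factors.

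In TPM, meiotic genes and later oocyte genes lay on opposite sides for Sohlh2. Of 32 listed genes of meiotic prophase, 29 reached 1 TPM in at least 30 cells, and 28 of these had a positive rho with Sohlh2, as 70.1% of all ranked genes had, with a median of 0.24 against 0.08 over all genes. The highest were Smc1b (0.41), a meiotic cohesin, Spata22 (0.39), which acts in recombination, Tex11 (0.38), which acts in crossing over, and the transcription factor gene Taf7l (0.37). The exception was Tex14 (-0.11), of the intercellular bridge. Of 24 oocyte genes listed as downstream of these factors, 17 reached 1 TPM in at least 30 cells. Dependence of the listed genes on the factors was not tested. With Sohlh2, 17 of the 17 had a negative rho, as 29.9% of all ranked genes had, with a median of -0.17. Counted once, the numbers were again 28 and 17, with medians of 0.25 and -0.16. The lowest were the Notch ligand gene Jag1 (-0.26), Zp1 (-0.24) and Dppa3 (-0.24), a maternal factor. Each single rho is weak. The list counts are given in TPM only. Division by the spike-in TPM took the median rho of all genes with Sohlh2 from 0.08 to 0.29, so the signs may differ under that scaling.

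With the other 4 factors the lists behaved otherwise. The 17 oocyte genes had a median rho of 0.13 with Nobox, where 16 were positive, 0.10 with Sohlh1, where 17 were, 0.06 with Figla, where 10 were, and -0.10 with Lhx8, where 5 were. Of all ranked genes 54.5%, 55.2%, 40.5% and 55.9% were positive with these factors in the same order, with medians of 0.01, 0.02, -0.03 and 0.02. Kit, the receptor that binds the ligand of the surrounding somatic cells, had rho of 0.42 with Nobox, 0.36 with Lhx8, 0.30 with Sohlh1 and 0.16 with Figla. Cd55 had rho between 0.37 and 0.61 with the 4. The 29 meiotic genes had medians of -0.09 with Figla, -0.08 with Sohlh1, -0.06 with Nobox and 0.03 with Lhx8. Within that list Sycp3 (0.53) and Syce2 (0.39), of the synaptonemal complex, went with Figla, while Meioc (-0.40), which holds cells in meiotic prophase, and Msh5 (-0.31), of crossover formation, went against it.

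**Figure D4:**
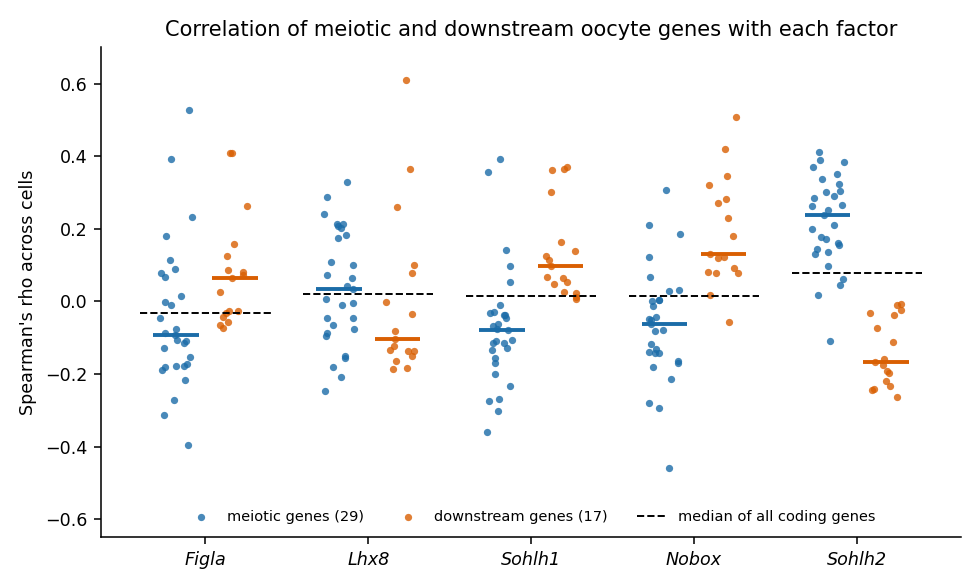
Spearman's rho across the kept cells of each gene of the meiotic list (29 genes) and of the downstream oocyte list (17 genes) with each factor, with list medians as coloured bars and the median over all coding genes as a dashed line. In TPM the lists lie apart for Sohlh2, with medians of 0.24 and -0.17.

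Of the HLH partners and inhibitors, Id2 stood out by its rho with the 4 factors. ID proteins have no DNA-binding region and hold back E proteins by pairing with them. Id2 was on in all but 4 cells with a median of 410.2 TPM, and its rho was 0.46 with Sohlh1, 0.42 with Figla, 0.38 with Lhx8 and 0.38 with Nobox, against -0.15 with Sohlh2. Id1 (median 1824 TPM) and Id3 (796 TPM) had rho between 0.06 and 0.31 with the 4. The E protein gene Tcf3, the partner of Figla, was on in all but 19 cells with a median of 80.5 TPM, and its rho was -0.05 with Figla and 0.15 with Sohlh2. Tcf12 (77.8 TPM) and Tcf4 (20.2 TPM) had rho between 0.01 and 0.17 with the 4.

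Other regulators differed among themselves. Stat3, Tbpl2, Dynll1 and Sub1, which act with Figla, Nobox, Lhx8 and Sohlh1 in a set that can drive stem cells towards oocytes, had a median rho of 0.36 with Figla, 0.32 with Sohlh1, 0.21 with Nobox, 0.04 with Lhx8, near the 0.02 of all genes, and -0.13 with Sohlh2. With Lhx8, Tbpl2 (-0.10) and Dynll1 (-0.02) were below 0. Stat3 was highest with Nobox (0.49). Foxo3, which keeps primordial follicles dormant, had rho of 0.43 with Sohlh1, 0.42 with Figla, 0.35 with Lhx8 and 0.29 with Nobox, against 0.03 with Sohlh2. Taf4b, a TFIID subunit of germ cells, had its highest rho with Sohlh2 (0.32) and was at -0.18 with Figla and -0.17 with Sohlh1. Tbp, the general TATA-binding protein, was between -0.05 and 0.11 with all 5.

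The cells with a factor off were split into 2 sets by which factors were off. In 17 cells Nobox, Lhx8 or Sohlh1 was off, and in 13 cells Sohlh2 was the only gene off. These counts depend on the limit for on. In place of 17 they came to 7 at 0.1 TPM and 5 at 1 read, and in place of 13 to 21 at 5 TPM. Splitting the cells this way was chosen after seeing the data, and the sets are defined by the factors' own TPM, so the levels of the gene that defines a set are not a result. Other genes varied within the 17 cells, with Meioc from 0 to 1219 TPM and Dppa3 from 0 to 486. With all 5 on, Meioc ran from 0 to 393 TPM and Dppa3 from 0 to 6054, so the ranges overlapped. Means over the 17 therefore pool unlike cells. In the 17 cells, Figla, which was on in all, ranged from 1.87 to 2040 TPM with a median of 261, against 75.6 to 4453 and a median of 1364 in the cells with all 5 on, so that the ranges overlapped. Sohlh2 ranged from 0 to 487 with a median of 85.8 in the 17, against 1.02 to 405 and 82.5, and its medians were alike. In the 13 cells, the medians of Figla (1423 TPM), Nobox (262), Lhx8 (445) and Sohlh1 (295) were close to those with all 5 on (1364, 241, 492 and 317), and the ranges overlapped.

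The zona genes were seldom on where Nobox, Lhx8 or Sohlh1 was off. Zp3 was on in 0 of the 17 cells (interval up to 19.5%) and in 45 of the cells with all 5 on (39.1%, 30.2 to 48.7%). Zp1 was on in 0 of 17 (up to 19.5%) and in 33 with all 5 on (28.7%, 20.6 to 37.9%), and Zp2 in 3 of 17 (17.6%, 3.80 to 43.4%) and in 77 (67%, 57.6 to 75.4%). Gdf9, the oocyte growth factor, was on in 1 of 17 (5.88%) and in 48 of those with all 5 on (41.7%). Counted once, the shares with all 5 on were 41.7% for Zp3, 30.6% for Zp1, 68.5% for Zp2 and 42.6% for Gdf9. The sets come from cells of 1 litter, and the difference between them was not tested. At a limit of 10 TPM, 1 cell had Zp3 on and Nobox off.

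The zona genes were on in part of the 13 cells with only Sohlh2 off. Zp3 was on in 7 of 13 (53.8%, 25.1 to 80.8%), Zp2 in 11 of 13 (84.6%, 54.6 to 98.1%), Zp1 in 4 of 13 (30.8%, 9.09 to 61.4%) and Gdf9 in 6 of 13 (46.2%, 19.2 to 74.9%). Kit was on in 13 of 13 cells, in all but 1 of those with all 5 on and in 12 of 17 with Nobox, Lhx8 or Sohlh1 off (70.6%, 44 to 89.7%).

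**Figure D5:**
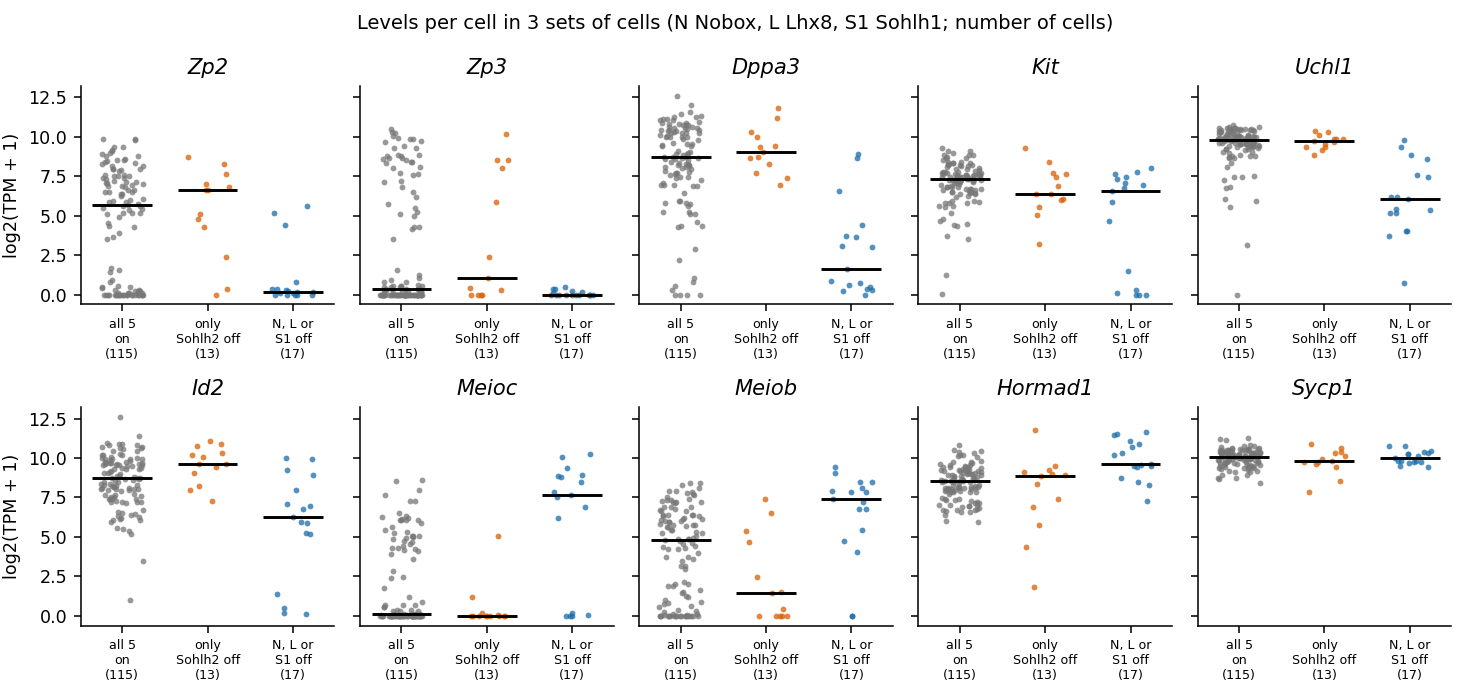
Level per cell, as log2(TPM + 1), of 10 oocyte, HLH and meiotic genes in the cells with all 5 factors on, the 13 with only Sohlh2 off and the 17 with Nobox, Lhx8 or Sohlh1 off, with black bars at the medians. Zp3 is near 0 in the 17 cells and Meioc is high in most of them, while Sycp1 is at a like level in the 3 sets.

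Over all genes whose mean reached 1 TPM in either set, means were compared as log2 ratios with a pseudocount of 1 TPM, and a gene was counted at 1.5-fold. In the cells with Figla, Nobox, Lhx8 and Sohlh1 all on, 11 of the 20 measured oocyte genes, Zp3 and Padi6 among them, had a mean below 1 TPM in the 17 cells. They entered only through the set where they were high, so their direction is given by the filter and they are not counted. Of the 9 with a mean of 1 TPM or more in both sets, 9 were higher with the 4 on, where 20.5% of all 13904 such genes were, with a median log2 ratio of 2.30 against -0.04 over all of them. Uchl1, a ubiquitin hydrolase of oocytes, had a mean of 864 TPM against 184 (log2 ratio 2.23), and Dppa3 of 821 against 61.3 (3.72, or 4.52 without 1 cell, with a median of 2.02 TPM in the 17). Kit was the least different, at 179 against 90.8 TPM (0.97). Zp3 had a mean of 154 TPM against 0.0746, and Padi6, of the maternal cytoplasmic lattice, of 279 against 0.287. None of the 9 fell below 1.5-fold when any 1 cell was left out.

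Of 30 measured meiotic genes, 15 were lower in the cells with the 4 factors on, where 23.2% of genes at 1 TPM or more in both sets were lower (16 counted once, and 3 of the 15 calls are lost without 1 cell), and 1, Rec114, was higher (0.74). Of the 14 within 1.5-fold, 3 pass it without 1 cell. The list's median was -0.60. Meioc had a mean of 22.3 TPM against 324 in the 17 cells (-3.80), Meiob, which acts in recombination, of 55.9 against 207 (-1.87), Msh5 of 13.7 against 52.5 (-1.86) and Hormad1, of the chromosome axis, of 457 against 1299 (-1.50). Sycp1 was at 1079 against 1099 TPM (-0.03). Of 7 HLH genes, Id2 (1.52) and Tcf4 (1.18) were higher, where 20.5% of all genes were, and 5 were within 1.5-fold. Of these 5, 2 pass 1.5-fold without 1 cell. Stat3 (1.21), Dynll1 (1.00) and Foxo3 (1.54, or 2.31 without 1 cell) were also higher, and Taf4b was lower (-0.92). Tbpl2, a TBP relative of oocytes, had a mean of 13.6 TPM with the 4 on and reached 1 TPM in 38 cells in all.

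With Sohlh2 on in 130 cells against off in 15, the ratios of the oocyte genes often turned on 1 cell. Of 18 with a mean of 1 TPM or more in both sets, 1 was higher (Ooep, 0.73, or 0.56 and no longer past 1.5-fold without 1 cell), where 21.4% of all 13957 such genes were, 1 was lower (Mos, -1.31), where 25.2% were, and 16 were within 1.5-fold, with a median of -0.09. Of these 16, 10 pass 1.5-fold without 1 cell, such as Zp3 (-0.11, or 0.84) and Pou5f1 (0.57, or 3.86), and of the 22 meiotic genes within 1.5-fold 8 do. Counted once, 2 oocyte genes were higher. Of 30 meiotic genes 7 were higher and 1 lower, with a median of 0.18 against -0.01 over all such genes. Among those higher were Meioc (4.31, with means of 64.1 and 2.29 TPM), Rad21l (1.78), Meiob (1.69), Spata22 (0.86), Sycp2 (0.72) and Rec114 (0.66). Without 1 cell Meioc came to 5.88, Rad21l to 3.52, Meiob to 2.45 and Spata22 to 1.66, while Rec114 came to 0.57, no longer past 1.5-fold. The medians of Meioc were 0.172 and 0 TPM, and the gene that was lower was Mei4 (-0.74, or 1.29 without 1 cell). The share of 7 in 30 is near the 21.4% of all genes. The set with Sohlh2 on also holds most of the 17 cells with Nobox, Lhx8 or Sohlh1 off. In those 17 cells Meioc had a mean of 324 TPM and Meiob of 207, against 24.6 and 59.3 with all 5 on. The part of these cells in the ratios for Sohlh2 was not tested. Of 7 HLH genes, Tcf3, at 86.9 against 36.7 TPM (1.22), and Id4 (0.76) were higher where Sohlh2 was on, as 21.4% of all genes were. Id3 was lower (-0.60, or -0.27 without 1 cell), and 4 were within 1.5-fold, of which 1 passes it without 1 cell. Taf4b was also higher (0.80).

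Taking the cells with all 5 on against the other 30, the 2 sets are pooled and the ratios are smaller. Of 20 oocyte genes, 17 were higher, where 21% of all 19623 genes were, and of 30 meiotic genes 11 were lower, where 23.8% of all genes were. Of the 20, 2 entered only through the set where they were high. Of the 18 oocyte genes at 1 TPM or more in both sets 15 were higher (16 counted once), where 13.7% of such genes were, and 19.2% of such genes were lower. Without 1 cell, 3 of the 15 oocyte calls and 3 of the 11 meiotic calls are lost. Gdf9 (0.56, or 1.24 without 1 cell), Jag1 (0.48, or 0.68) and Mos (-0.23, or 0.31) were the 3 oocyte genes within 1.5-fold. Divided by the spike-in TPM, 39% of all genes were higher and 14.9% lower, and with mean log2(TPM + 1) values subtracted 21.4% were higher and 3.66% lower. The median log2 ratio of all genes moved from -0.06 to 0.37 and 0.14 under these scalings, that of the oocyte genes from 0.97 to 1.69 and 1.09, and that of the meiotic genes from -0.38 to -0.09 and -0.11.

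Measures of the libraries differed between the sets. The 13 cells with only Sohlh2 off had a median of 7452 genes at 1 TPM against 9355 with all 5 on and 8518 in the 17 cells. Mitochondrial reads were 10.2%, 6.28% and 5.22% in these sets, and spike-in reads, which take a larger share where a cell gives less RNA, 0.66%, 0.35% and 0.37%. The 13 pregranulosa markers summed to between 0.03 and 12.7 TPM, between 0 and 82.1 and between 0 and 64.2 TPM in the same order. The 7 stroma markers summed to up to 101.3, 873 and 28.1 TPM, with Nr2f2 at 1 TPM or more in 52 cells and the others in 0 to 14, and the 4 endothelial markers to up to 0.421, 20.6 and 31.05 TPM. The blood genes summed to up to 25926, 48544 and 324531 TPM. The part of these measures in the differences was not tested.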

How the data were processed

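The data are 146 Smart-seq2 libraries of single cells. Reads were quantified by the authors in Salmon with the seqBias option, on mm10 plus the ERCC spike-in sequences, and TPM and estimated counts per gene were deposited. The deposited TPM share 1 total per cell, mitochondrial genes and spike-ins included, and the estimated counts deposited by the authors are not normalized. The annotation release is not given in the sources used here. All 146 cells passed the limits on reads (500000), mitochondrial (35%) and spike-in (4%) share that the methods state, as computed here from the deposited reads. The methods state that fewer cells remained, so their measures may differ from these. The 145 cells with Ddx4 at 1 TPM or more were used. No doublet caller was run on hand-picked cells.

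Analyses used SciPy 1.17.1, NumPy 2.4.6, pandas 2.3.3 and Python 3.11.15. Since no animal is named for a cell, no p-value, standard error or test was made. The genes named are the 5 factors, the 5 coding genes with the highest Spearman rho with each factor, and genes of lists of HLH partners, oocyte factors, regulators, downstream oocyte genes, meiotic genes and cell type markers. The factors and lists were chosen with earlier results of these data known. The calculations were tested on simulated data. The values of 1 gene of the meiotic list are not reported here. Alternatives were other limits for on (0.1, 5 and 10 TPM, 1 and 10 reads), thinning, CPM, division by the spike-in TPM, a pseudocount of 0.1 TPM, means of log2 values, no filter on low genes and all cells kept. Near-copy libraries counted once, fixed transcript lengths, the split of the cells with a factor off and leaving out the cells rich in blood genes or low in Ddx4 were added after seeing the data.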

Additional observations from a re-analysis of the deposited data

How the results depend on the processing

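The number of cells with all 5 factors on stayed within 1.5 times under every limit tried, and Figla was on in 97.9 to 100% of cells. With a limit of 0.1 TPM, Nobox was on in 97.9% and Lhx8 in 99.3% of cells, and 7 cells in place of 17 had Nobox, Lhx8 or Sohlh1 off. With 1 estimated read as the limit, Nobox was on in 97.9%, Lhx8 in 99.3% and Sohlh1 in 97.2%, and 5 cells had Nobox, Lhx8 or Sohlh1 off. With a limit of 5 TPM, Sohlh2 alone was off in 21 cells in place of 13, both libraries of 1 near-copy pair among them. With 10 TPM Sohlh2 was on in 83.4% of cells. Division by the spike-in TPM took the median rho from 0.54 to 0.76 for the 6 pairs without Sohlh2 and from -0.0017 to 0.34 for the 4 pairs with it, Sohlh1 and Sohlh2 going from -0.10 to 0.30. Lower limits count cells with few reads as on by construction. The causes of the other shifts were not tested. With all 5 on, the count of meiotic genes lower was 8 to 11 (main 11). That of oocyte genes higher was 12 to 21 (main 17), which includes genes whose direction the filter on low values gives. The median log2 ratio of all genes with all 5 on turned from -0.06 to 0.37 with the spike-ins, 0.14 with mean log2 values and 0.01 with no filter on low genes. With each near-copy pair of libraries counted as 1 cell, the counts of cells stayed within 1.5 times, the shares within their intervals and the rho of the pairs within 0.1, while the oocyte genes higher with Sohlh2 on went from 1 to 2. No paired analysis was possible because the cells form 1 group and no test was made. At this depth Sohlh2 could stand at up to 1.71 TPM in a cell with 0 reads of it, and the cells of 1 litter give no spread between animals.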
